A study of Mus musculus with 5 samples.

Results

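The interleukin 1 (IL-1) and interleukin 18 (IL-18) system was followed here through 10 genes: the ligands Il1a, Il1b and Il18, the inhibitors Il1rn, Il1r2 and Il18bp, the receptor chains Il1r1 and Il1rap, and the inflammasome genes Casp1 and Nlrp3. They were picked by name from 21154 gene symbols on the array, and every non-control probe whose transcript maps to one of them was taken. This gave 12 probes, 2 each for Il1rap and Nlrp3 and 1 for each of the other 8 genes. All 12 probes passed the filter on dim signal, and 11 of them were well above background on all 5 arrays, the exception being the single Il1r2 probe.

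RNA came from adherent peritoneal macrophages of 8 week old mice, taken by lavage and plated overnight before floating cells were removed. The wild-type group had 3 mice, numbered 5, 11 and 14, which were littermates of the mutants on a 129/C57Bl6 background. The c-Jun-deleted group had 2 mice, numbered 1 and 9, whose titles read c-JunΔLysM and whose genotype is given as cJunfl/fl LysMCre-/+, that is, floxed c-Jun alleles with a Cre recombinase driven from the Lyz2 (lysozyme M) locus in myeloid cells. A different Cre line, Mx, stands in their source names, and the labels do not settle which is right. The source names number the mice separately, so arrays were treated as animals. Should they not be, each p reflects no more than the scatter of these 5 samples. No stimulus is named for either genotype, so the values describe plated cells without a stated inflammatory trigger.

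IL-1α and IL-1β signal through IL1R1, which recruits the accessory chain IL1RAP and the adaptor MyD88, and the IL-1 receptor antagonist (Il1rn) occupies IL1R1 without signalling. IL1R2 is a decoy receptor without a signalling domain, and IL-18 binding protein (Il18bp) captures secreted IL-18. IL-1β and IL-18 are made as precursors that caspase-1 cleaves after an inflammasome such as the NLRP3 complex has formed, so a transcript level says nothing of how much mature cytokine is released. In macrophages Il1b and Nlrp3 are known as genes primed by NF-κB signalling, and c-Jun is a subunit of AP-1, a transcription factor dimer that binds the letters TGAGTCA.

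Promoter windows are shown for the ligands Il1a and Il1b and for the antagonist Il1rn, because the deleted gene encodes an AP-1 subunit and the levels of these genes are compared below. All of them lie on chromosome 2, where Il1a and Il1b are next to each other, with 0 protein-coding genes between them, as are Il1r2 and Il1r1 on chromosome 1. The sequences are the 250 bases before a transcript start, from RefSeq on build GRCm38.p6, written 5′ to 3′ on the gene's own strand, with capitals marking TGAGTCA or its reverse complement TGACTCA:
Il1rn, chr2:24336610-24336859, plus strand: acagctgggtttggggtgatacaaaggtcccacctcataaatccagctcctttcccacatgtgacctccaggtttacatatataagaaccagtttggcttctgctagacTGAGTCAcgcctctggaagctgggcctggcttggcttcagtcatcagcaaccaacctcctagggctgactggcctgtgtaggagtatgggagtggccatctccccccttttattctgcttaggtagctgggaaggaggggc
Il1a, chr2:129309973-129310222, minus strand: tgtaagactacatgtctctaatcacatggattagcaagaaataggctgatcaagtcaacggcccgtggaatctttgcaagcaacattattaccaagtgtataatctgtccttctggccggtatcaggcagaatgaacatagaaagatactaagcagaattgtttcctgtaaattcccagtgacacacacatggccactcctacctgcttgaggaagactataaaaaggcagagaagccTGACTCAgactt
Il1b, chr2:129371140-129371389, minus strand: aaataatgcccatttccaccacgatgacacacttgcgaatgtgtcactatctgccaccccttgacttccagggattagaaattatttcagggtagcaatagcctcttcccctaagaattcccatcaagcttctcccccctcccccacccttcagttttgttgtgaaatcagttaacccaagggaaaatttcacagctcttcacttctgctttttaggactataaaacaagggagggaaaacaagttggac
The Il1rn window shown is the first of 3 in the table, and the other two do not hold these letters. The match in it begins 141 bases before that start and the match in Il1a 12 bases before it, while these letters are not in the Il1b window. Of the 14 windows that the table holds for the 10 genes, 2 contain the AP-1 letters on either strand, against 4.46% of all 32851 windows of that length. The NF-κB consensus, searched on both strands, was found in 2 of the 14 windows, at Il1r1 and at Nlrp3, against 7.25% of all windows. These matches describe letters in a window and do not show that a factor binds there.

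Values are log2 of the background-subtracted signal relative to the 75th percentile of the same array, so 0 means a signal equal to that percentile. Each difference is the c-Jun-deleted mean less the wild-type mean, with the standard error (SE) of the limma fit over 27938 genes. The 75th percentile signal ran from 437 to 596 over the 5 arrays, and 52.1 to 59.9% of probes were well above background. The number of arrays limits the precision. Jun was at 3.21, 3.75 and 3.17 in wild-type mice 5, 11 and 14 and at 2.76 and 2.71 in the c-Jun-deleted mice, called mutants below. Its probe could not be placed relative to the deleted part, so it does not check the genotype. Lyz2 was at 4.46 in c-Jun-deleted 1 against 8.52 in c-Jun-deleted 9 and 8.70 to 9.18 in wild-type. Xist, transcribed from the inactive X chromosome of females, was at -4.53 in wild-type 11 and between -0.04 and 0.74 elsewhere, while the Y-linked Uty was highest there, at -2.06. Uty was also well above background in wild-type 14, at -3.97. The labels give no sex, but by Xist wild-type 11 reads as the one male array. On that reading sex was not balanced between the genotypes.

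Defining macrophage markers were high on all arrays, and the summed level of the 10 measured of 11 listed (Marco did not enter) was 9.84 to 10.34 in wild-type mice and 9.35 to 9.85 in the mutants. Of these 10 genes 7 were lower in the mutants (median -0.49), the same direction as most members, and 3 were higher. The genotypes did not overlap for 5 lower and 2 higher ones (Cd68 and Itgam), against 20.2% and 13.3% of all genes. Without Lyz2 the sum was 8.91 to 9.51 against 9.13 to 9.30. Markers of other cells were measured as well. Large peritoneal macrophage markers summed to 7.19 to 8.14 against 8.40 to 8.73 (8 of 8 measured higher), and all 10 B cell markers were higher, with sums of 5.39 to 6.38 against 8.12 to 8.66. Monocyte and dendritic cell markers summed to 5.43 to 6.74 against 6.57 to 6.92 (8 of 9 measured), T and NK cell markers to 4.02 to 5.53 against 5.73 to 6.13 (10 of 10), and mast cell markers to 5.36 to 6.92 against 6.53 to 6.62 (7 of 8, all 7 higher). A sum follows its most abundant genes: of the T and NK cell markers 4 were lower and 6 higher (median 0.17), with Cd2 alone not overlapping. Of the monocyte and dendritic cell markers 4 were lower and 4 higher (median -0.23). Those not overlapping were Itgax (-1.04) and Zbtb46 (-0.63), lower, and Plac8 (1.71) and Irf4 (1.19), higher. Ccr2, at -1.62, overlapped. Neutrophil markers were at 7.31 to 7.44 against 7.30 to 7.43 (10 of 12), a sum made mostly of Csf3r, at 7.09 to 7.32. Of the neutrophil markers 6 were lower and 4 higher (median -0.03), with Mpo (-2.55) and Mmp8 (1.11) not overlapping. Red cell markers were at -0.94 to 0.44 against 3.37 to 4.47 (4 of 6, Alas2 not well above background on any array), and mesothelial and stromal markers at 0.83 to 2.27 against 0.40 to 0.71 (7 of 10, Lrrn4 and Pdgfra not well above background on any array). Within the wild-type group, number 11 had the highest monocyte and dendritic cell sum, with Ccr2 at 3.14 against 0.58 and -0.50, and the lowest large macrophage marker Gata6, at -1.07 against 1.81 and 1.29. The part of this mixture in the differences below was not tested, and in these bulk samples fewer cells of a type and less RNA per cell cannot be told apart.

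The comparison of genotypes asks how the system differs between these bulk samples of c-Jun-deleted and wild-type mice. In the c-Jun-deleted samples 9 of the 10 genes had a lower mean than in the wild-type ones, Il1r1 being the exception. The median difference was -0.89, against -0.09 over all genes tested. For 6 genes both c-Jun-deleted arrays lay below all 3 wild-type arrays (Il18, Il1rn, Il1r2, Il18bp, Il1rap and Nlrp3), and no gene lay above. That order was met by 20.2% of all genes tested, and a lower mean by 61.4%. With each array centred on its median instead, 2 of the 6 stayed apart (Il1rn and Il1rap), against 5.66% of all genes, and with centring on macrophage markers 3 did (those and Il18), against 7.45%. No member passed limma's threshold: 0 of 10 had a Benjamini-Hochberg adjusted p below 0.05, as did 0% of all genes, and the members' adjusted p ran from 0.295 to 0.774. At an unadjusted p below 0.05, 4 members were lower (Il18, Il1rn, Il1rap and Nlrp3) and 0 higher, against a background of 6.53% lower and 5.63% higher; 3395 of all genes lay there.

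**Figure D1:**
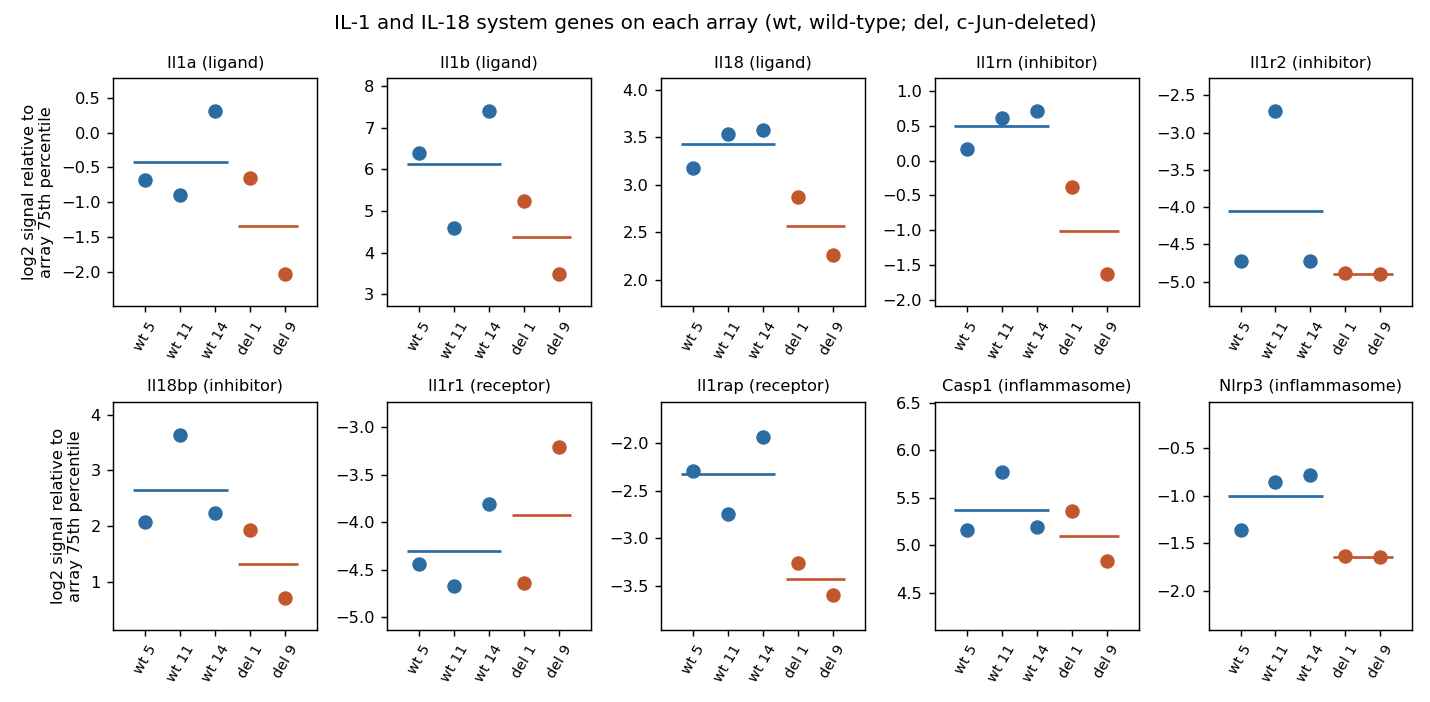
Level of each of the 10 genes on each array, as log2 signal relative to the array's 75th percentile (vertical axis, own range per panel), for wild-type (wt, blue) and c-Jun-deleted (del, orange) samples. Points are single arrays and lines are group means. The groups overlap for Il1a, Il1b, Il1r1 and Casp1, and c-Jun-deleted 9 is the lowest array in 9 of 10 panels.

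Among the ligands, Il1b, which encodes the inducible IL-1β precursor, varied most. Its level was 6.39, 4.59 and 7.40 in wild-type mice 5, 11 and 14 and 5.24 and 3.49 in mutants 1 and 9. Wild-type 14 was highest and c-Jun-deleted 9 lowest, a 15.0-fold range, and the groups overlapped because c-Jun-deleted 1 lay above wild-type 11. The mean was 3.39-fold lower in the c-Jun-deleted samples (log2 difference -1.76, SE 0.99, 95% interval -4.34 to 0.82, limma adjusted p = 0.508). The array carries 10 spots of the Il1b probe, whose SD within an array was 0.04 to 0.09, against an SD of 1.42 over the 3 wild-type arrays. The spots share 1 labelling and hybridization, so their SD covers spot noise only. Leaving out wild-type 14 gave -1.13, leaving out wild-type 11 gave -2.53, and leaving out c-Jun-deleted 9 gave -0.89.

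Il1a, the neighbour of Il1b, encodes IL-1α, an alarmin that is active without caspase-1 cleavage. It was at -0.68, -0.90 and 0.31 in wild-type mice 5, 11 and 14 and at -0.65 and -2.03 in mutants 1 and 9. As for Il1b, wild-type 14 was highest, c-Jun-deleted 9 lowest and wild-type 11 the lowest of its group, over a 5.05-fold range. The groups overlapped, with a difference of -0.92 (SE 0.57; limma adjusted p = 0.541) and no stable size: it was -0.23 without c-Jun-deleted 9, -0.55 without wild-type 14, and -1.60 when mutant 1 was left out. It was 0.023 within the slide that held wild-type 5 and c-Jun-deleted 1, and -1.73 within the other.

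Il18, a ligand that macrophages hold as a precursor before any stimulus, was much steadier. Its level was 3.18, 3.54 and 3.58 in wild-type mice and 2.87 and 2.26 in the mutants. Both c-Jun-deleted arrays lay below the lowest wild-type array, which was number 5. The mean was 1.82-fold lower (-0.86, SE 0.26, 95% interval -1.53 to -0.20), but limma's adjusted p was 0.327, and the difference was -0.56 without c-Jun-deleted 9.

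All 3 inhibitors had lower means in the c-Jun-deleted samples, with a median difference of -1.32. Il1rn, the receptor antagonist, was at 0.17, 0.60 and 0.71 in wild-type mice and at -0.38 and -1.62 in mutants 1 and 9. The groups did not overlap, and the mutants differed from each other by more than the whole wild-type range. The mean was 2.82-fold lower (SE of the log2 difference 0.42, 95% interval -2.59 to -0.40; limma adjusted p = 0.312). Without c-Jun-deleted 9 the difference was -0.88. Its probe is 1 of 2 member probes among the 1709 in the authors' deposited table, where the group columns differ by -1.49.

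Il18bp, the IL-18 trap, was at 2.07, 3.64 and 2.23 in wild-type mice and at 1.94 and 0.71 in the mutants. Wild-type 11 stood apart at the top, and c-Jun-deleted 1 lay just below the other wild-type arrays. The difference was -1.32 (SE 0.64, 2.50-fold lower; limma adjusted p = 0.463), -0.82 without wild-type 11, the array with the highest Ccr2, and -0.71 without c-Jun-deleted 9.

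The decoy receptor gene Il1r2 was close to background, at -4.72, -2.71 and -4.72 in wild-type mice and -4.89 and -4.90 in the mutants. Only wild-type 11 and c-Jun-deleted 1 were well above background. The groups did not overlap, but 4 of the 5 arrays lay together and wild-type 11 alone was higher. Its difference of -0.85 (SE 0.69; limma adjusted p = 0.633) became -0.18 without wild-type 11, so the value rests on that array.

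The 2 signalling receptor chains had differences of opposite sign. Il1rap, the shared accessory chain of the IL-1 and IL-33 receptors, was at -2.29, -2.75 and -1.94 in wild-type mice and at -3.27 and -3.60 in the mutants. Both mutants lay below every wild-type array, and the mean was 2.15-fold lower (-1.11, SE 0.29, 95% interval -1.86 to -0.35). This was the smallest p among the members, at a limma adjusted p of 0.295. The authors' deposited table gives -1.11 for this probe. It holds group means of the same samples at the same percentile, so this is no separate check. The dimmer second Il1rap probe was at -4.30, -4.33 and -3.73 against -4.58 and -4.24, a difference of -0.29 with overlapping groups. The probes thus disagree in size, and with normexp background correction and quantile normalization the brighter one was at -0.54.

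Il1r1, which encodes the receptor that binds both IL-1 ligands, was dim on every array, between 0.32 and 1.31 above the lowest signal well above background. It was at -4.44, -4.67 and -3.81 in wild-type mice and at -4.64 and -3.20 in mutants 1 and 9. The mutants lay near opposite ends of the range, and c-Jun-deleted 9, the lowest array for the other genes, was the highest here. The difference was 0.39 (SE 0.51; limma adjusted p = 0.774) with c-Jun-deleted 9 and -0.33 without it. It was 1.1 without c-Jun-deleted 1, 0.20 without wild-type 11 and 0.63 without wild-type 14.

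Of the inflammasome genes, Casp1, the protease that cleaves both precursors, differed least between the genotypes. It was at 5.16, 5.77 and 5.19 in wild-type mice and at 5.35 and 4.84 in the mutants. The groups overlapped, with c-Jun-deleted 1 above 2 of the 3 wild-type arrays, and the difference was -0.28 (SE 0.28, 95% interval -1.02 to 0.46; limma adjusted p = 0.701). On the slide of wild-type 5 and c-Jun-deleted 1 it was 0.20. It was -0.02 without c-Jun-deleted 9, -0.08 without wild-type 11, and -0.54 when mutant 1 was left out.

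Nlrp3, the sensor of the complex, was at -1.36, -0.86 and -0.78 in wild-type mice and at -1.63 and -1.65 in the mutants. The mutants were nearly equal and lay below all wild-type arrays, and the mean was 1.56-fold lower (-0.64, SE 0.23, 95% interval -1.23 to -0.05; limma adjusted p = 0.386). A second Nlrp3 probe was at -2.32, -1.63 and -2.01 against -2.60 and -2.52, a difference of -0.57 that again left the groups apart. Of the 2 genes with 2 probes, Nlrp3 was thus the one whose groups stayed apart on both.

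**Figure D2:**
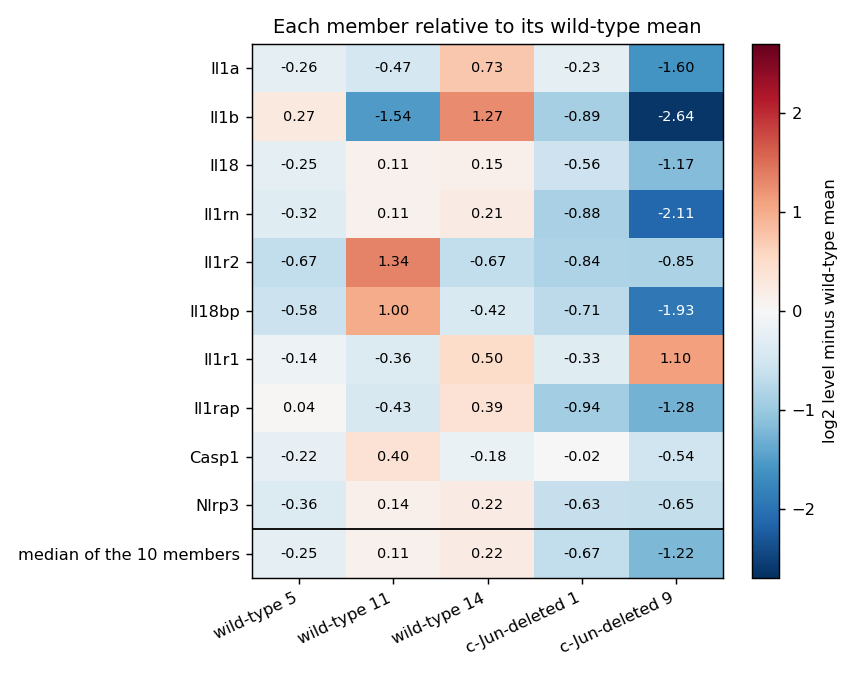
Each gene's log2 level minus its wild-type mean (colour and printed value) on each of the 5 arrays, with the median over the 10 genes in the bottom row. The median is -0.67 on array 1 and -1.22 on array 9 of the mutants, against -0.25, 0.11 and 0.22 on the wild-type arrays.

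The members did not vary as one block. c-Jun-deleted 9 was the lowest of the 5 arrays for 9 of 10 genes, an order met by 28.5% of all genes. c-Jun-deleted 1 was the lowest for none. These counts use the brightest probe of each gene. On the second probes of Il1rap and Nlrp3, c-Jun-deleted 1 was the lowest array. The mutants were also nearly equal for Il1r2 (-4.89 and -4.90) and Nlrp3 (-1.63 and -1.65). Wild-type 14 was highest for 6 genes, and wild-type 11 for Il1r2, Il18bp and Casp1. For Il1b, Il1a, Il1rap and Il1r1 wild-type 11 was instead the lowest wild-type array. The IL-1 ligands and the IL-18 binding protein thus set this sample, male by Xist, at opposite ends of its group. The part of sex in this was not tested.

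The 5 arrays came from 2 slides. Fitted with slide as a block, the model gave -1.92 for Il1b, -0.87 for Il18, -1.54 for Il1rn, -1.33 for Il18bp, -1.14 for Il1rap and -0.59 for Nlrp3. Within slide 1, which held wild-type 5 and c-Jun-deleted 1, these genes, taken in that order, were at -1.15, -0.31, -0.55, -0.13, -0.98 and -0.27. Within slide 2, which held wild-type 11 and 14 and c-Jun-deleted 9, they were -2.50, -1.30, -2.28, -2.22, -1.26 and -0.83. Every one of these was lower in the mutant on both slides, which for all but Il1b follows from the groups not overlapping. Of the members outside this set, Il1a (0.023) and Casp1 (0.20) were higher in the mutant within slide 1. Il1r1 (-0.20) and Il1r2 (-0.17) were lower there. Between slides Il1rap was the closest of the listed genes, and Il18bp the furthest apart. Whether the slides or the animals on them account for the gap cannot be told apart.

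The balance of agonist and inhibitor within an array was compared next, as the log2 ratio of a pair relative to its wild-type mean. For Il1b over Il1rn it was 0.59, -1.65 and 1.06 in wild-type mice 5, 11 and 14 and -0.01 and -0.52 in mutants 1 and 9. Both mutants lay inside the wild-type range, with a mean difference of -0.27 against a wild-type SD of 1.44. For Il18 over Il18bp the ratio was 0.33, -0.89 and 0.56 against 0.15 and 0.76. Again wild-type 11 was lowest and the groups overlapped, with a mean difference of 0.46 and a wild-type SD of 0.78. Il1a over Il1rn was 0.07, -0.58 and 0.52 against 0.64 and 0.51, a mean difference of 0.58 with a wild-type SD of 0.55. Only c-Jun-deleted 9 lay inside the wild-type range there, just under wild-type 14. In none of these 3 pairs did both mutants lie outside the wild-type range, and 3 against 2 arrays cannot give an exact permutation p below 0.1.

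**Figure D3:**
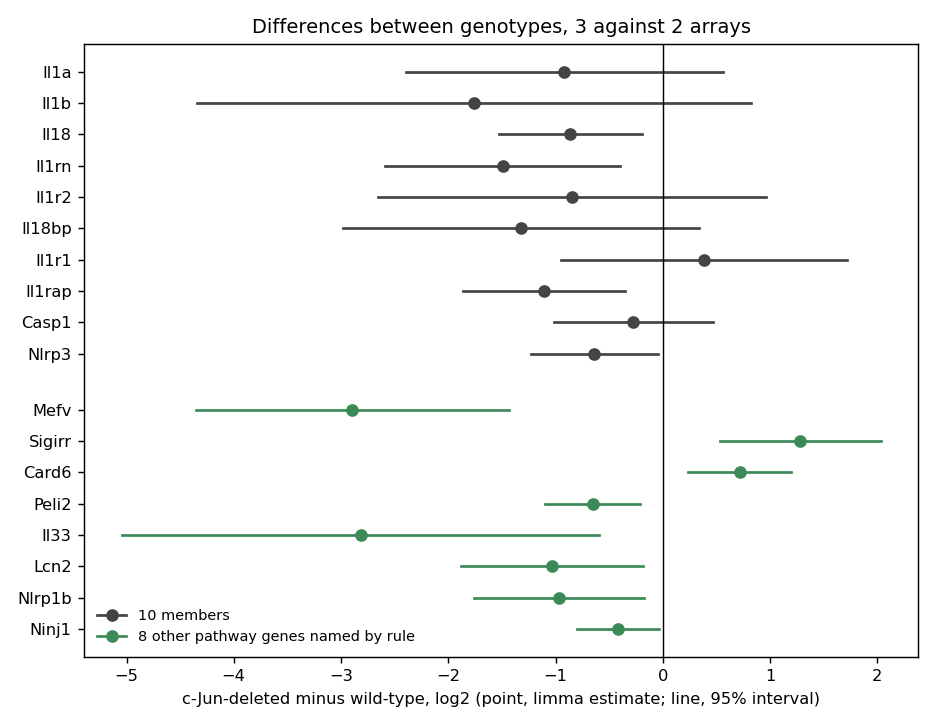
Difference between genotypes (c-Jun-deleted minus wild-type, log2, horizontal axis) for the 10 members (grey) and the 8 other pathway genes named by rule (green). Points are limma estimates and lines their 95% intervals from 3 against 2 arrays; the intervals of Il1a, Il1b, Il1r2, Il18bp, Il1r1 and Casp1 include 0.

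Other genes of the pathway were listed by role. Of 63 such genes 54 were measured: 34 had lower and 20 higher means in the c-Jun-deleted samples, with a median difference of -0.17. The genotypes did not overlap for 19 lower and 7 higher ones, against 20.2% and 13.3% of all genes, and 0 passed limma's adjusted threshold. At an unadjusted p below 0.05 there were 6 lower and 2 higher genes among the 54, against 6.53% lower and 5.63% higher over all genes, and these 8 are the ones named by rule.

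The 23 measured of 24 other inflammasome genes were balanced, 12 lower and 11 higher with a median of -0.04 (8 and 15 with median centring), and held Mefv, which with Il33 had the largest differences of the pathway. Mefv, which encodes pyrin, the sensor of another caspase-1 inflammasome, was at 4.07, 5.35 and 5.15 in wild-type mice and at 2.58 and 1.34 in the mutants. The gap between the groups exceeded the range within either, and the mean was 7.43-fold lower (-2.89, SE 0.56; limma adjusted p = 0.227). A second Mefv probe gave -2.79, and the difference was -1.49 within slide 1 and -3.91 within slide 2. Nlrp1b, a sensor of anthrax lethal toxin, was at -0.97 with a second probe at -1.07, Ninj1, which acts in plasma membrane rupture, at -0.42 and Card6 at 0.72 (limma adjusted p from 0.292 to 0.386). Pycard, the adaptor ASC that joins sensors to caspase-1, was at 5.37, 5.19 and 5.21 against 5.51 and 5.16 (0.08), and Gsdmd, the pore former, at 4.14, 4.60 and 4.44 against 4.03 and 3.71 (-0.53), with limma adjusted p of 0.867 and 0.419.

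All 4 measured other receptors of the family had higher means in the mutants (4 of 6 listed, median 0.71) and with each other scaling tried, the opposite direction to the members' median. Sigirr, a receptor known to dampen IL-1 and Toll-like receptor signalling, was at -0.31, 0.08 and -0.59 in wild-type mice and at 0.73 and 1.29 in the mutants, without overlap and 2.43-fold higher (1.28, SE 0.29; limma adjusted p = 0.256). The IL-18 receptor chain Il18r1 was at -1.61, 0.41 and -1.60 against -0.18 and 0.32, overlapping because wild-type 11 was highest. Il1rl1, the IL-33 receptor, was at 3.85, 3.02 and 2.67 against 3.62 and 3.56. These receptors are also known from T, NK and mast cells, whose marker sums are given above, and the part of those cells was not tested.

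Of the other family ligands 2 of 6 were measured, both with lower means. Il33, a nuclear alarmin, was at -3.38, -1.73 and -3.28 against -4.52 and -6.71 (-2.81, SE 0.85; limma adjusted p = 0.337). It was well above background on only 1 of the 2 mutant arrays and at -0.88 with normexp, so its size is uncertain. Il33 is also known from mesothelial and stromal cells, whose markers had lower sums in the mutants. The part of those cells was not tested.

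The 15 receptor signalling genes, all measured, had a median of -0.20 with 11 lower, which median centring turned to 0.015 with 6 lower. Peli2, a ubiquitin ligase of the IRAK complex, was at 0.60, 0.42 and 0.77 against 0.00 and -0.13, apart but small (-0.65; limma adjusted p = 0.292). The adaptor gene Myd88 was at 4.18, 3.88 and 4.63 against 3.81 and 3.34 (-0.66; limma adjusted p = 0.440). Among genes known to be induced by IL-1, 10 of 12 were measured, 9 lower and 1 higher, with a median of -0.33 (6 lower and 4 higher with median centring). Lcn2, an iron-scavenging lipocalin, was at -0.40, -0.16 and 0.47 against -0.83 and -1.29 (-1.03; limma adjusted p = 0.351). Il6 was at 2.10, 0.94 and 2.78 against 2.21 and 0.97, with wild-type 14 the highest and wild-type 11 the lowest of their group as for Il1b, and Cxcl1 was the 1 higher gene, at 0.23.

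**Figure D4:**
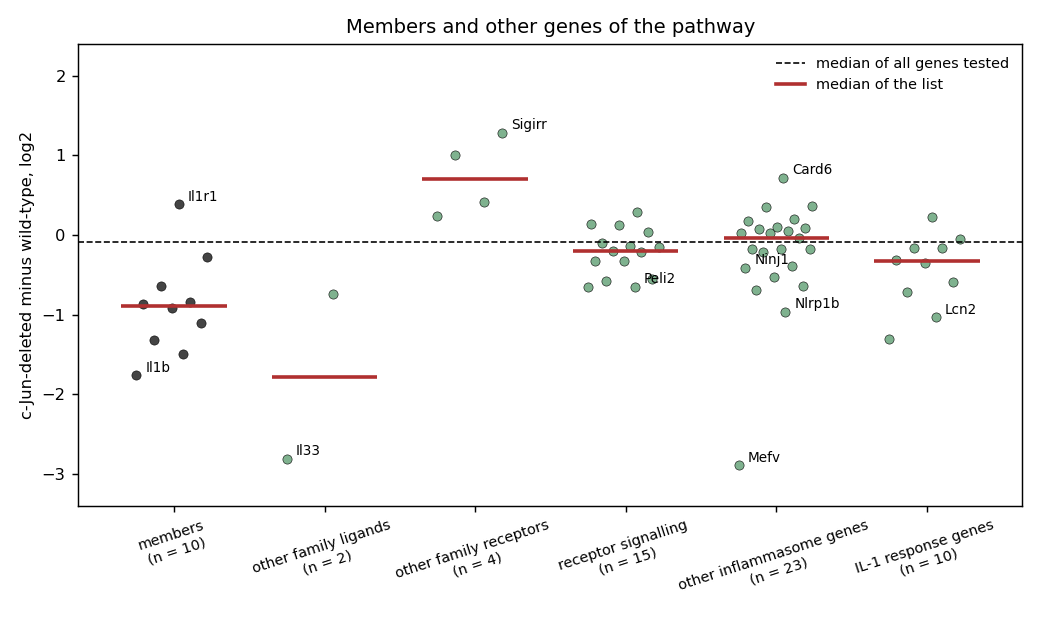
Difference between genotypes (c-Jun-deleted minus wild-type, log2, vertical axis) for each measured gene of the members and of the 5 other pathway lists; points are genes, red lines list medians and the dashed line the median of all genes tested. The members have a median of -0.89 and the other receptors of the family one of 0.71.

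The genes whose pattern over the 5 arrays was nearest to a member were sought among 14640 other named genes, by the root mean square distance of centred log2 levels. Nearest to Il1b were Tnfsf14 (distance 0.23), Pot1a (0.26) and Pdgfrb (0.26). Nearest to Il1rn were Adgrf1 (0.07), Emp2 (0.07) and Kirrel (0.13), and nearest to Il18 were 1700001L05Rik (0.03), Ripk3 (0.06) and Slc15a3 (0.06). Ripk3, for example, was at 3.50, 3.67 and 3.79 in wild-type mice and at 3.13 and 2.45 in the mutants, the same order of arrays as Il18. Pdgfrb (-5.92) and Kirrel (-6.57) lay below the lowest signal well above background on c-Jun-deleted 9 (-4.51), and Adgrf1 (-4.33) just above it. Pdgfrb (-5.08) also lay below the corresponding signal on wild-type 11 (-4.98). Such levels limit the distances of these genes. Over 5 arrays many genes can share a pattern, and all these distances are a description only.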

How the data were processed

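RNA of 5 samples was measured on 1-colour Agilent arrays, with 50 ng of total RNA labelled with Cy3 per the labels' protocols. The scanner files the authors deposited hold the intensity of each spot, background-subtracted by Feature Extraction 11.5.1.1 per the file headers, with no scaling between arrays. The deposited 0 or 1 flags were used for filtering only. The normexp alternative started instead from the deposited median spot and median background intensities. The table the authors deposited gives log2 values, 1 mean per group, shifted to the 75th percentile and to an unstated baseline, so only differences of its columns were used.

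Log2 of the signal minus log2 of each array's 75th percentile was computed here. Control spots and outlier-flagged spots were left out, the spots of a probe averaged, and a probe kept where 2 or more of the 5 arrays had it well above background. Probes were named through transcript accessions and a RefSeq table of GRCm38.p6 (28026 of 55681 probes). The arrays were designed on mm9, so that table gave names and neighbours only. A named gene was its brightest probe, and unnamed probes entered as they were. The genotypes were tested by lmFit and eBayes of limma 3.58.1 (R 4.3.3), 2-sided and without covariates, adjusted by Benjamini-Hochberg over 27938 genes with a threshold of 0.05, and tested on simulated data. The value of a second probe is its own difference.

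The members and gene lists were chosen with earlier results of these data known. Pathway genes are named with their values where the unadjusted p was below 0.05; Pycard, Gsdmd, Il18r1, Il1rl1, Myd88, Il6 and Cxcl1 were named after their values were seen. A summed marker level is log2 of the sum of the list's scaled signals. Alternatives were normexp (offset 50) with quantile normalization, quantile normalization alone, median centring, no filter on dim probes, flagged spots kept, the mean of a gene's probes, the slide as a block, each slide alone, each array left out and, added after the data were seen, centring on macrophage markers other than Lyz2.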

Additional observations from a re-analysis of the deposited data

How the results depend on the processing

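Of 152 values of the members over 16 alternatives, 148 kept their direction, and 0 of the 140 that have an adjusted p passed the threshold. The 12 others (slide 1 alone and the authors' table) carry no test. Many of these values could hardly move. Without the filter on dim probes every member difference was the same as before. With flagged spots kept only Il1b changed, and with the mean of a gene's probes only Il1rap and Nlrp3 did. The authors' table holds group means of the same samples. The 148 are thus not separate checks. All 124 values of the 8 named pathway genes kept their direction, with the same repeats for dim probes and flagged spots. These genes were picked because their groups did not overlap on these arrays. Their direction was thus fixed in advance with an array left out, within a slide and with the slide as a block. The same holds for the 6 members without overlap. The reversals were Il1a at 0.023, Il1r1 at -0.20 and Casp1 at 0.20 within slide 1, and Il1r1 at -0.33 without c-Jun-deleted 9, in a range up to 1.1 (without c-Jun-deleted 1). The cause was not tested. The members' median of -0.89 was -0.61 with normexp, -0.23 within slide 1 and -1.28 within slide 2, and ran from -1.22 (without c-Jun-deleted 1) to -0.67 (without c-Jun-deleted 9) with 1 array left out. The 6 members without overlap were 2 (Il1rn and Il1rap) with median centring, beside 5.66% of all genes, and 3 (Il18, Il1rn and Il1rap) with centring on macrophage markers, added after the data were seen, beside 7.45%. With 1 array left out they were 6 to 10, an order then easier to meet: 10 without c-Jun-deleted 1 (9 lower, and Il1r1 higher) beside 60.9% of all genes in either direction, 7 without wild-type 11 beside 53.6%, and 6 in the other 3 cases beside 44.0 to 50.7%. Median centring moved the median of all genes from -0.09 to 0.12, and 187 genes then passed the adjusted threshold, 0 of them members. With quantile normalization alone 5 members stayed apart, Il1r2 no longer among them, beside 15.3% of all genes. In each of the 3 other scalings and with macrophage centring 9 of 10 members were lower. Of all genes 52.5% were lower with normexp, 51.2% with quantile normalization alone, 36.1% with median centring and 34.7% with macrophage centring. No paired analysis was possible because the numbers in the titles are not shared between the genotypes. Signals of Il1r1, Il1r2 and the second Il1rap probe lie near background, which limits their values.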
